A study of Mus musculus with 6 samples.

Results

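The cadherin and protocadherin genes were compared between C57BL/6 mouse embryonic fibroblasts, cultured connective tissue cells, that overexpressed p27 from a lentivirus and fibroblasts of the same strain labelled EV control. Members were chosen by name, as every gene symbol of the count table that began with Cdh and a digit or with Pcdh, 94 of 24062 symbols. Each group had 3 libraries, named p27OE 1 to 3 and EV control 1 to 3, all labelled day 10. Cdkn1b is the gene for p27, which halts the cell cycle by binding cyclin-kinase complexes. The sample titles and treatment protocol describe the p27OE cells as senescent and the series design text as non-senescent, the EV control titles alone carry a dataset tag, and nothing states what virus the EV control cells received or whether a group's 3 libraries were separate cultures. The family itself was selected on a measured value, the higher Cdh13 of p27OE cells in this same contrast, so its Cdh13 values and the counts of called members describe these libraries and support nothing.

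Cadherins are calcium-dependent adhesion proteins. The classical types, I and II, bind the same or related cadherins on neighbouring cells and are anchored to actin through beta-catenin, alpha-catenin and p120-catenin. Protocadherins lack that catenin link: the delta protocadherins act in adhesion, sorting and migration, while the clustered alpha, beta and gamma genes give neurons a surface identity through the choice among many promoters in a row. Fibroblasts typically carry N-cadherin (Cdh2) and cadherin 11 (Cdh11) and lack E-cadherin (Cdh1), and a loss of Cdh1 with a gain of Cdh2 is the textbook sign of a change from epithelial to mesenchymal state.

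The libraries held 39183624 to 61219345 counts, and levels are given as CPM, counts per 1000000 counts after TMM scaling (trimmed mean of M-values). Cdkn1b was at 43.9, 31.5 and 32.3 CPM in EV control and at 167, 232 and 337 CPM in p27OE (log2 fold change 2.77 ± 0.29, SE; edgeR adjusted p = 0.028), a call that was lost when EV control 2, EV control 3 or any single p27OE library was left out (edgeR adjusted p from 0.0563 to 0.189). Fibroblast genes were abundant in every library, summing to 38980 to 54100 CPM in EV control and 36020 to 41410 in p27OE over 11 genes, although Dcn and Lum lay at 4.18 to 11.2 CPM in EV control 2, EV control 3 and p27OE 3. Libraries numbered 1 stood apart in both groups: 4 Y-linked genes summed to 0.125 CPM in EV control 1 and to 1.95 in p27OE 1, against 57.1 CPM in p27OE 2 and 124 to 137 CPM in the other 3. Other marker lists differed too, and their part in the results was not tested. Macrophage markers (12 genes, Lyz2 highest) summed to 94.2 CPM in EV control 1 and 18.5 to 37.2 elsewhere, and all 12 had log2 fold changes below 0 without a call. Smooth muscle and pericyte markers (11 genes, Acta2 highest) summed to 6004 to 10860 CPM in EV control and 7290 to 15120 in p27OE. Of these, 9 lay above 0 and 2 below, and Rgs5 and Cspg4 rose (log2 fold change 1.53 and 0.70; edgeR adjusted p = 0.0303 and 0.045), calls lost when EV control 2, EV control 3 or any single p27OE library was left out (edgeR adjusted p from 0.0707 to 0.215). Neural and glial markers (13 genes, Stmn2 highest) summed to 132 to 165 CPM in EV control and 170.0 to 206 in p27OE, with 6 of 7 tested above 0 and no call. Cartilage and bone markers (12 genes, Col2a1 highest) summed to 372 to 575 CPM in EV control and 482 to 888 in p27OE, with 4 of 9 tested above 0 and no call. Results are therefore also given from a model with a term for Y-linked level and without both libraries numbered 1.

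Of the 94 members, 56 had a mean of at least 1 CPM in a group, and 38 lay under 1 CPM in both. All of the 56 and 11 of the 38 passed the filter on low counts (edgeR's filterByExpr) and were tested; a member can pass through the group where it is high. The other 27 had at most 61 counts over all 6 libraries. Cdh20, Pcdha4, Pcdha4-g and Pcdhb1 had no count, which for Cdh20 and Pcdhb1 allows up to 0.075 CPM (3 counts) in the shallowest library. Pcdha4 shares 93.0% of its exon bases with other genes, and no exon length was available for Pcdha4-g. For these genes the bound holds only if reads of shared exons were counted, which was not given in the sources used here. Among those with almost no reads was Cdh5 (VE-cadherin), the junction protein of endothelium, at 4 to 6 counts per EV control library and 2 to 4 per p27OE library. Of the 12 endothelial markers, Cldn5 and Sox17 were at 0 in every library, and their summed level was 61.2 to 73.3 CPM in EV control and 40.2 to 49.4 in p27OE, with Flt1 the highest in each library.

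Levels between genes were compared as CPM per kilobase of exon that no other gene shares (GENCODE M21). Among members outside the clusters, Cdh11 was highest in both groups, at 42.5 ± 14.5 CPM per kilobase in EV control and 47.4 ± 6.79 in p27OE (SD, n = 3 each), with no overlap with the next gene. In EV control Cdh3 (P-cadherin) followed at 21.7 ± 5.02, also without overlap, and then Cdh2 at 13.4 ± 2.24, Pcdh19 at 11.1 ± 0.284, Pcdh7 at 10.5 ± 0.746 and Pcdh18 at 10.4 ± 3.15, each of which overlapped its neighbour. In p27OE the order was Pcdh7 at 15.2 ± 1.2, Cdh2 at 14.2 ± 3.15, Cdh3 at 13.5 ± 3.68, Pcdh19 at 11.0 ± 2.58 and Pcdh18 at 9.41 ± 2.45, again with overlap between neighbours. Cdh13 lay lower, at 1.89 ± 0.0728 in EV control and 4.5 ± 0.352 in p27OE. Over all 6 libraries, Pcdhgc3 of the gamma cluster was at 66.5 ± 6.17 over its 1821 unshared bases but at 22.0 over all 5499 exon bases, so its place above or below Cdh11 depends on whether reads of the shared exons were counted, which was not given in the sources used here. Pcdhga10, a gamma gene with 0 unshared bases in GENCODE M21, still held 523 to 849 counts per library. Values per unshared kilobase are therefore uncertain for gamma genes. The same holds for Pcdh7, at 12.9 over its 8369 unshared bases and 10.2 over all 10604 exon bases (means over all 6 libraries). Its place relative to Cdh2, Cdh3, Pcdh19 and Pcdh18 is thus uncertain in both groups.

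**Figure D1:**
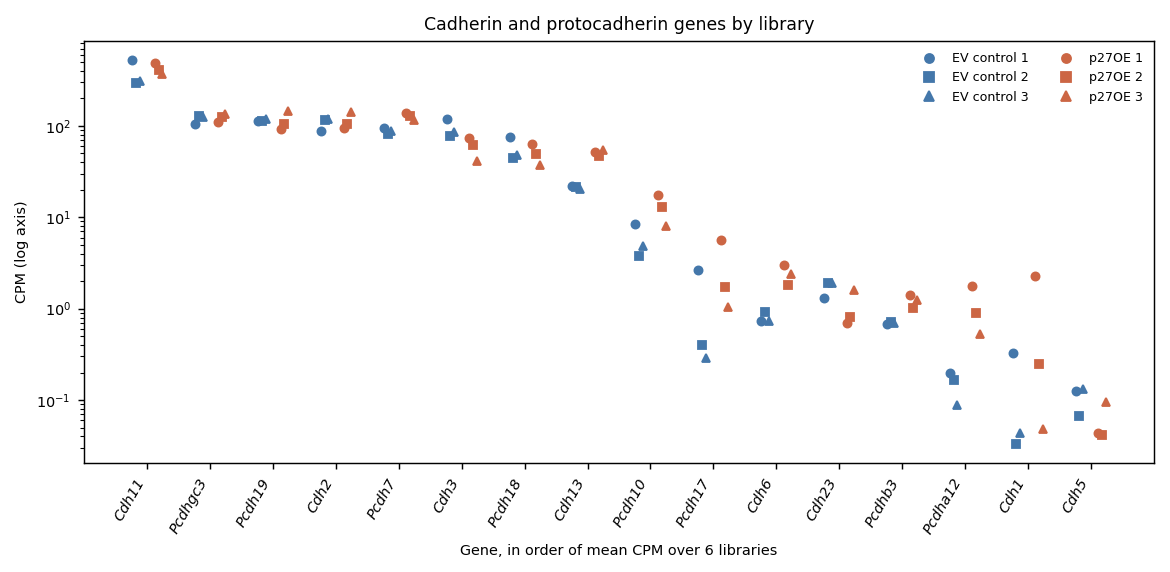
CPM (log axis) of 16 members in each of the 6 libraries, in order of their mean; blue marks are EV control, orange marks p27OE, and the marker shape gives the library number. The p27OE libraries of Cdh13, Cdh6, Pcdh7, Pcdha12 and Pcdhb3 lie above all their EV control libraries, and those of Cdh3 lie below. Cdh11, Pcdh18 and Pcdh17 are highest in the libraries numbered 1.

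In the comparison of p27OE with EV control, 3 of the 67 tested members passed (edgeR's quasi-likelihood test, adjusted p under 0.05 over all 13990 genes): Cdh13, Cdh6 and Pcdh7, each higher in p27OE. Over all genes 2.61% passed in either direction, 1.77% as higher and 0.843% as lower. The groups did not overlap for 18 members, 12 higher and 6 lower in p27OE, which is 26.9% of the members beside 33.3% of all genes tested (16.8% higher and 16.5% lower). Of the 67 members 46 had a log2 fold change above 0 and 21 below, with a median of 0.16. Of all genes tested 7244 lay above 0 and 6746 below, with a median of 0.01. In bulk RNA, fewer cells of a kind and less RNA per cell cannot be told apart.

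Cdh13 encodes T-cadherin, which is held in the membrane by a lipid (GPI) anchor, has no cytoplasmic tail to bind catenins, and binds adiponectin. It was at 22.0, 21.3 and 20.3 CPM in EV control 1, 2 and 3, and at 51.3, 46.3 and 54.1 CPM in p27OE 1, 2 and 3. The EV control values were tightly grouped, and every p27OE library lay above 2 times any of them. The group means were 21.2 ± 0.818 and 50.6 ± 3.95 CPM (SD, n = 3 each), a fold of 2.39 (log2 fold change 1.25 ± 0.08, SE). The gene lies on chromosome 8 (GRCm38, 118283733 to 119324921, plus strand), and none of its 11233 exon bases is shared with another gene. The ratio was 2.34 between the libraries numbered 1 and 2.60 for p27OE 3 over the mean of EV control 2 and 3.

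Cdh6 (K-cadherin) is a type II cadherin of kidney and of migrating neural crest. It rose from 0.725, 0.926 and 0.724 CPM in the EV control libraries to 3.03, 1.82 and 2.40 CPM in p27OE, with no overlap. These rest on 29, 56 and 33 counts in EV control and 140, 89 and 100 in p27OE. The log2 fold change was 1.60 ± 0.28 (SE; adjusted p = 0.047, edgeR). Cdh6 is on chromosome 15 (GRCm38, 13028701 to 13173675, minus strand).

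Pcdh7 is a delta protocadherin that binds protein phosphatase 1. It was far more abundant, at 94.2, 81.7 and 88.3 CPM in EV control and 137, 128 and 117 in p27OE. It rose 1.45-fold (log2 fold change 0.53 ± 0.09, SE; edgeR adjusted p = 0.045), and its 3 p27OE libraries all lay above the 3 EV control libraries. It lies on chromosome 5 (GRCm38, 57717967 to 58133230, plus strand), and 21.1% of its exon bases are shared with another annotated gene. Without EV control 1 both genes passed (edgeR adjusted p = 0.0387 for Cdh6 and 0.0269 for Pcdh7), and 4 members were called with Pcdha12, 5.88% of those tested beside 12.9% of all genes in that fit. Its only controls were EV control 2 and EV control 3, the most alike pair of one group. Both Cdh6 and Pcdh7 lost their call when EV control 2, EV control 3 or any single p27OE library was left out (edgeR adjusted p from 0.0917 to 0.215 for Cdh6 and from 0.0715 to 0.215 for Pcdh7); each of those fits called 1 or 2 genes in all and no member. Their log2 fold changes stayed within 1.39 to 1.76 and 0.46 to 0.59. Pcdh7 did not pass with upper-quartile or total-count scaling (edgeR adjusted p = 0.0518 and 0.0601).

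The start regions of Cdh6 and Pcdh7, the called members found in the table of RefSeq promoters (GRCm38.p6, which matched 22 of the 94 members), are shown because these genes rose together. The Cdh6 stretch is the 250 bases before its start (chr15:13173676-13173925, minus strand), and the Pcdh7 stretch is 136 bases that end 115 bases before its RefSeq start, where the GENCODE gene begins (chr5:57717831-57717966, plus strand). Capitals mark matches, on either strand, to CAGGTG (an E-box of the Snail and Zeb repressors), GGGCGG (GC box), TTTGAA (the CHR of cell cycle genes) or TATAAA.
Cdh6: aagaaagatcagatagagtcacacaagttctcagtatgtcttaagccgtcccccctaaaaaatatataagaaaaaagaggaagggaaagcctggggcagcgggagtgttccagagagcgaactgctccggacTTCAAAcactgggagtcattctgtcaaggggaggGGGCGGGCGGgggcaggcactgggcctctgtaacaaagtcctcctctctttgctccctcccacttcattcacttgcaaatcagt
Pcdh7: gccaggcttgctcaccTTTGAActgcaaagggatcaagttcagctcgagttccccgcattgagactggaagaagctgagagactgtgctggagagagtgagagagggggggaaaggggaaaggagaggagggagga
In the 250 bases before the start, Cdh6 had 2 GC box matches, which overlap in part, and 1 CHR match, and Pcdh7 had 1 CHR match; neither had a CAGGTG or a TATAAA match. Of 32851 promoters of that length, 32.7% held GGGCGG, 16.0% TTTGAA, 17.2% CAGGTG and 12.4% TATAAA. A match describes letters only.

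Among the 5 type I cadherins, 2 had log2 fold changes above 0 and 3 below, and 0 passed with edgeR. An unadjusted edgeR p under 0.05 was reached by 1, beside 26.0% of all genes. With DESeq2 1 passed, beside 16.6% of all genes, and with limma-voom 0. The 5 genes summed to 197.9 to 209.5 CPM in EV control and 169.7 to 186.4 in p27OE, lower without overlap. Most of that sum was Cdh2 and Cdh3, and of these Cdh3 was lower while Cdh2 was not. Cdh2 (N-cadherin) was at 87.0, 117 and 119 CPM in EV control and at 94.9, 106 and 143 CPM in p27OE. The groups overlapped, and in each the library numbered 1 was the lowest (log2 fold change 0.09 ± 0.19, SE). Cdh3 was at 119.9, 78.3 and 86.7 CPM in EV control and at 73.6, 62.1 and 41.7 CPM in p27OE. Every p27OE library lay below every EV control library, but the change did not pass (log2 fold change −0.68 ± 0.25, SE; edgeR adjusted p = 0.146). Its adjusted p was 0.0429 with DESeq2 and 0.000773 in edgeR with a term for Y-linked level, fits that called 16.6% and 34.0% of all genes.

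Cdh1 (E-cadherin) was at 0.325, 0.0331 and 0.0439 CPM in EV control and at 2.25, 0.246 and 0.0481 CPM in p27OE. p27OE 1 alone held 104 of its counts, and the other libraries 2 to 13, so its log2 fold change, 2.74 ± 1.46 (SE; edgeR adjusted p = 0.292), became 0.24 without p27OE 1. It passed with a term for Y-linked level (log2 fold change 2.06; edgeR adjusted p = 0.0375), a fit that called 34.0% of all genes. The summed level of 12 epithelial markers was 24.4 CPM in p27OE 1 against 32.6 and 46.1 in p27OE 2 and 3 and 21.1 to 69.2 in EV control. Most of that sum was Krt19 and Krt7. Of the rest, Krt18 was at 1.49 CPM in p27OE 1 against 3.28 and 7.76 in p27OE 2 and 3, and Krt8 was highest in EV control 1 (0.65 CPM). Cldn3, Cldn4, Cldn6, Cldn7 and Epcam (0.0439 to 0.132 CPM) were not highest in p27OE 1, and Esrp1 was at 0 in every library. Krt14 was at 0.433 CPM in p27OE 1, 0.123 in p27OE 2 and 0 elsewhere, and Krt5 at 0.0433 CPM in p27OE 1 and 0 elsewhere. The part of epithelial cells in the Cdh1 level was not tested. Cdh4 (R-cadherin) was at a mean of 1.23 CPM in EV control and 0.769 in p27OE (log2 fold change −0.67), with no overlap and no call. Cdh15 (M-cadherin), a marker of muscle progenitors, lay below 1 CPM in both groups, at 0.802 and 0.747, and its 2 highest libraries were those numbered 1. The 12 skeletal muscle markers summed to 29.1 to 56.4 CPM in EV control and 42.7 to 123 in p27OE, nearly all of it Des (26.2 to 118.9 CPM). All 5 that were tested lay above 0 without a call, Myf5 and Ckm were at 0 in every library, and Myod1, Myog and Pax7 were at 0 to 0.0961 CPM.

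Of the 5 tested type II cadherins 3 lay above 0 and 2 below, and Cdh6 alone passed with edgeR. Their reads were mostly Cdh11, the cadherin of mesenchyme and bone-forming cells, which made up 90.7 to 96.5% of their summed CPM. It was at 528, 299 and 309.6 CPM in EV control and at 486, 414 and 366 CPM in p27OE. EV control 1 was the highest of the 6 libraries and the groups overlapped (log2 fold change 0.16 ± 0.24, SE; edgeR adjusted p = 0.725); without EV control 1 the value was 0.46 (edgeR adjusted p = 0.0804). Cdh10 and Cdh18, described mainly in the brain, were at means of 11.9 and 5.05 CPM in EV control and 7.74 and 6.81 CPM in p27OE, with log2 fold changes of −0.62 and 0.43 and no call. In both genes the libraries numbered 1 lay below the other 4. Cdh24 was at 7.99 CPM in EV control and 5.96 in p27OE (log2 fold change −0.42), without overlap and without a call. Among the 4 tested cadherins outside types I and II, 2 lay above 0 (Cdh13 and Cdh17) and 2 below. Cdh17 (LI-cadherin, known from intestine and liver) was at 9.25, 9.08 and 11.5 CPM in EV control and at 15.3, 16.1 and 13.3 CPM in p27OE. Its groups did not overlap either (log2 fold change 0.58 ± 0.14, SE; edgeR adjusted p = 0.0681). Cdh23, part of the tip links of inner ear hair cells, was at 1.33, 1.92 and 1.89 CPM in EV control and 0.692, 0.82 and 1.59 in p27OE (log2 fold change −0.73 ± 0.38, SE), and Cdh26 was at 1.17 and 0.818 CPM on average (−0.51).

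The 8 tested delta protocadherins had 6 log2 fold changes above 0, 2 below and a median of 0.42, and Pcdh7 alone passed with edgeR. Pcdh10 was at 8.53, 3.75 and 4.89 CPM in EV control and at 17.7, 12.8 and 8.12 CPM in p27OE. EV control 1 lay just above p27OE 3, so the groups overlapped (log2 fold change 1.17 ± 0.39, SE; edgeR adjusted p = 0.125). Between libraries of like Y-linked level it was higher in p27OE in both comparisons, by 2.07 times for the libraries numbered 1 and 1.88 times for p27OE 3 over EV control 2 and 3. Pcdh17 had overlapping groups, at 2.65, 0.397 and 0.285 CPM in EV control and 5.69, 1.74 and 1.03 in p27OE (log2 fold change 1.37 ± 1.01, SE). Without both libraries numbered 1, Pcdh10, Pcdh17 and Pcdh9 passed, with edgeR log2 fold changes of 1.27, 1.99 and 0.61 and adjusted p of 0.041, 0.0388 and 0.0385. That fit called 16.7% of all genes, and its only controls were EV control 2 and EV control 3, the most alike pair of one group.

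Pcdh9 was at means of 13.0 CPM in EV control and 18.3 in p27OE (log2 fold change 0.50, no call), Pcdh1 at 1.10 and 1.39 CPM (0.33), and Pcdh11x at 4.16 and 4.26 CPM (0.04). Pcdh20, another protocadherin outside the clusters, was at 1.35 and 1.39 CPM (0.04). Pcdh19, an X-linked gene that acts in adhesion together with N-cadherin, was at 114, 113 and 118.9 CPM in EV control and at 93.1, 104.8 and 144 CPM in p27OE. Its EV control libraries agreed closely and its p27OE libraries fell on both sides of them (log2 fold change −0.02 ± 0.16, SE). Pcdh18 was at 75.4, 45.0 and 47.5 CPM in EV control and at 64.0, 49.7 and 37.8 CPM in p27OE (log2 fold change −0.15 ± 0.26, SE), highest in the libraries numbered 1.

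**Figure D2:**
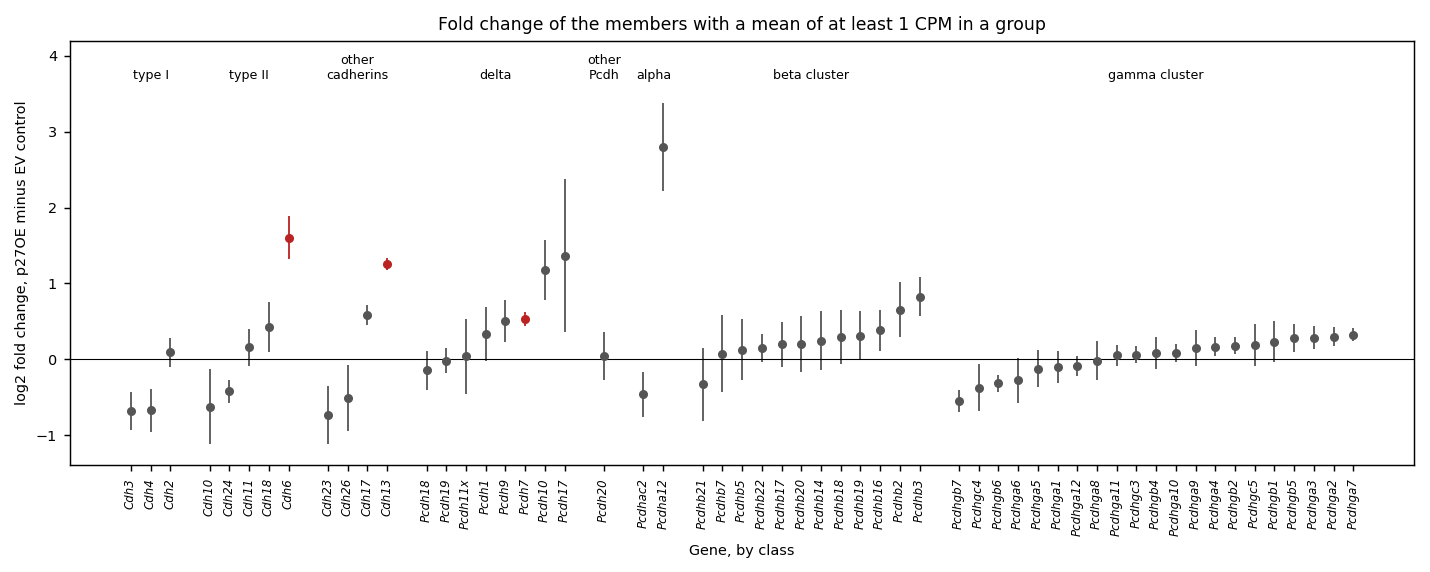
log2 fold change (p27OE minus EV control, points) with its SE (bars) for the 56 members with a mean of at least 1 CPM in a group, by class; red points passed (edgeR adjusted p under 0.05). The 3 red points, Cdh6, Cdh13 and Pcdh7, lie above 0, and most gamma cluster genes lie close to 0.

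The clustered protocadherins, 59 of the members, lie in a row on chromosome 18 (GRCm38, 36930184 to 37841873 from Pcdha1 to Pcdhgc5). Each alpha and each gamma gene has its own first exon, spliced to exons that all genes of its cluster share. Of the exon bases of the gamma genes, 31.5 to 100% belong to more than 1 gene. For the alpha genes with a GENCODE M21 position the share is 48.6 to 93.0%, and the counts of both clusters are uncertain. Beta genes are mostly single exons that resemble each other. With edgeR, 0 of the 43 tested clustered genes passed (6 at an unadjusted p under 0.05; 3 with DESeq2 and 0 with limma-voom). Over all genes 26.0% had an unadjusted p under 0.05, 16.6% passed with DESeq2 and 3.0% with limma-voom, shares above those of the clustered genes.

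The alpha cluster was nearly silent apart from Pcdhac2, a gene of the C type at the end of the cluster, which made up 90.6 to 96.7% of the cluster's CPM in EV control and 65.6 to 80.0% in p27OE. Pcdhac2 was at means of 9.30 CPM in EV control and 6.75 in p27OE (log2 fold change −0.46), lower without overlap and without a call. The other 14 alpha genes together had 40, 32 and 14 counts in EV control 1, 2 and 3 and 134, 106 and 83 counts in p27OE 1, 2 and 3. These are 1.0, 0.529 and 0.307 CPM against 2.90, 2.17 and 1.99 CPM, so every p27OE library lay above every EV control library. Of these 14 genes, 10 had a higher summed CPM in p27OE, 2 a lower one and 2 no count, but several directions rest on few counts. Pcdhac1, among the 10, had 2 counts in EV control 2, 2 in p27OE 3 and 0 elsewhere. With Pcdhac2 included, the cluster summed to means of 9.91 CPM in EV control and 9.10 in p27OE.

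In p27OE most of those reads came from Pcdha12 and Pcdha10. Pcdha12 was at 0.20, 0.165 and 0.0878 CPM in EV control and at 1.75, 0.902 and 0.529 CPM in p27OE (log2 fold change 2.80 ± 0.58, SE; edgeR adjusted p = 0.0564). It passed the filter on low counts through p27OE, where it is high: the EV control libraries held 8, 10 and 4 counts. It passed without EV control 1 (edgeR adjusted p = 0.0498) and with DESeq2, which is given as a description. These fits called 12.9% and 16.6% of all genes. Pcdha10 had 10, 6 and 0 counts in EV control and 25, 30 and 26 counts in p27OE (edgeR adjusted p = 0.139), and it was chosen for mention after its values were seen. Like Pcdha12, it passed the filter through p27OE.

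The 22 beta genes summed to 46.1, 24.2 and 26.3 CPM in EV control and to 44.2, 37.9 and 31.7 CPM in p27OE. EV control 1 and p27OE 1 were the highest, and the groups overlapped. Of the 18 tested beta genes, 16 had log2 fold changes above 0, with a median of 0.27, and 0 passed with edgeR. An unadjusted edgeR p under 0.05 was reached by 1, beside 26.0% of all genes. With DESeq2 0 passed, beside 16.6% of all genes, and with limma-voom 0. Pcdhb3 was at 0.675, 0.711 and 0.702 CPM in EV control and 1.43, 1.03 and 1.25 in p27OE, without overlap (log2 fold change 0.82 ± 0.26, SE; edgeR adjusted p = 0.11). The highest beta genes were Pcdhb17, at means of 6.96 CPM in EV control and 7.95 in p27OE (log2 fold change 0.20), and Pcdhb22, at 6.57 and 7.27 CPM (0.15). Pcdhb19 was at 3.22 and 3.97 CPM (0.31), Pcdhb16 at 2.48 and 3.23 CPM (0.38) and Pcdhb5 at 2.37 and 2.57 CPM (0.12). Lower still were Pcdhb20 at 1.41 and 1.61 CPM (0.20), Pcdhb14 at 1.28 and 1.51 CPM (0.25), Pcdhb18 at 1.16 and 1.41 CPM (0.30) and Pcdhb7 at 1.13 and 1.18 CPM (0.07). Pcdhb2 was at 0.823 and 1.29 CPM (0.65), and Pcdhb21 lay below 0, at 1.01 and 0.801 CPM (−0.33). Pcdhb13, under 1 CPM, had 10, 15 and 8 counts in EV control and 29, 13 and 12 in p27OE. It was higher without overlap (log2 fold change 0.80, edgeR adjusted p = 0.334) and is named for that alone. The groups did not overlap for 2 of the 18 tested beta genes (11.1%, beside 33.3% of all genes tested).

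**Figure D3:**
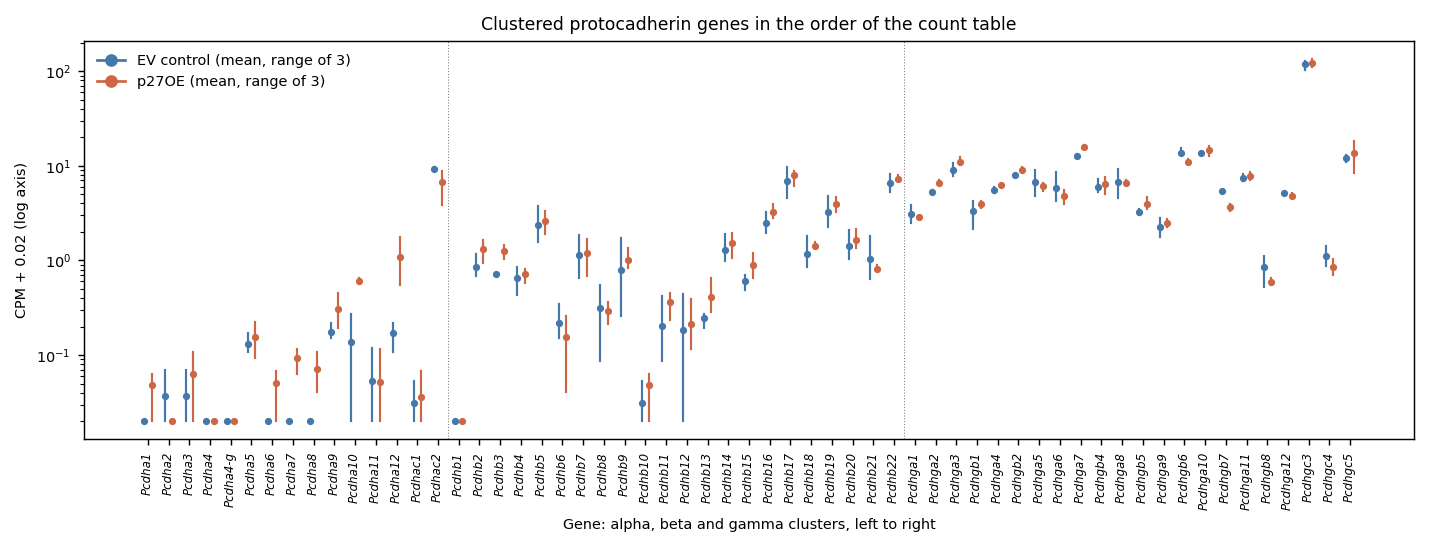
Mean CPM plus 0.02 (log axis, points) with the range of 3 libraries (lines) for the 59 clustered protocadherin genes in the order of the count table; dotted lines part the alpha, beta and gamma clusters. Alpha genes other than Pcdhac2 lie low, and Pcdhgc3 stands above all other clustered genes in both groups.

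The gamma cluster held by far the most clustered protocadherin reads, and its sum hardly varied: 253, 258 and 256 CPM in EV control and 249, 267 and 283 in p27OE. Pcdhgc3, a C type gene at the end of the cluster, gave 41.1 to 49.3% of that sum. It was at 104.0, 127 and 124 CPM in EV control and at 112, 124 and 135 CPM in p27OE, with overlapping groups (log2 fold change 0.06 ± 0.11, SE). The other C type genes were Pcdhgc5, at means of 12.1 and 13.8 CPM (log2 fold change 0.19), and Pcdhgc4, at 1.09 and 0.837 CPM (−0.38).

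Of the 22 gamma genes 13 lay above 0 and 9 below, with log2 fold changes from −0.55 to 0.32, and the 19 A and B type genes gave 11 above and 8 below. The groups did not overlap for 6 of the 22 genes (27.3%, beside 33.3% of all genes tested). All 6 were of type A or B, as were 19 of the 22. Pcdhga7 (means of 12.7 CPM in EV control and 15.9 in p27OE, log2 fold change 0.32 ± 0.09, SE) and Pcdhgb7 (5.35 and 3.64 CPM, −0.55 ± 0.15) came closest to a call (edgeR adjusted p = 0.0836 and 0.0793). Pcdhga2 at 5.31 and 6.53 CPM (0.30), Pcdhga4 at 5.59 and 6.26 CPM (0.16) and Pcdhgb2 at 7.97 and 9.02 CPM (0.18) were higher without overlap, and Pcdhgb6 at 13.8 and 11.0 CPM (−0.32) was lower without overlap. All 6 share exons with their neighbours.

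The remaining gamma genes overlapped between the groups. Those with values above 0 were Pcdhga3 at 9.12 and 11.1 CPM (0.28), Pcdhgb5 at 3.27 and 3.97 CPM (0.28), Pcdhgb1 at 3.34 and 3.92 CPM (0.23) and Pcdhga9 at 2.25 and 2.49 CPM (0.15). Pcdhga10 at 13.7 and 14.6 CPM (0.09), Pcdhgb4 at 5.99 and 6.36 CPM (0.08) and Pcdhga11 at 7.49 and 7.75 CPM (0.05) lay nearer 0. Those below 0 were Pcdhgb8, under 1 CPM in both groups, at 0.827 and 0.577 CPM (−0.52), Pcdhga6 at 5.82 and 4.79 CPM (−0.28), Pcdhga5 at 6.76 and 6.17 CPM (−0.13), Pcdhga1 at 3.11 and 2.89 CPM (−0.11), Pcdhga12 at 5.12 and 4.80 CPM (−0.09) and Pcdhga8 at 6.72 and 6.61 CPM (−0.02).

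**Figure D4:**
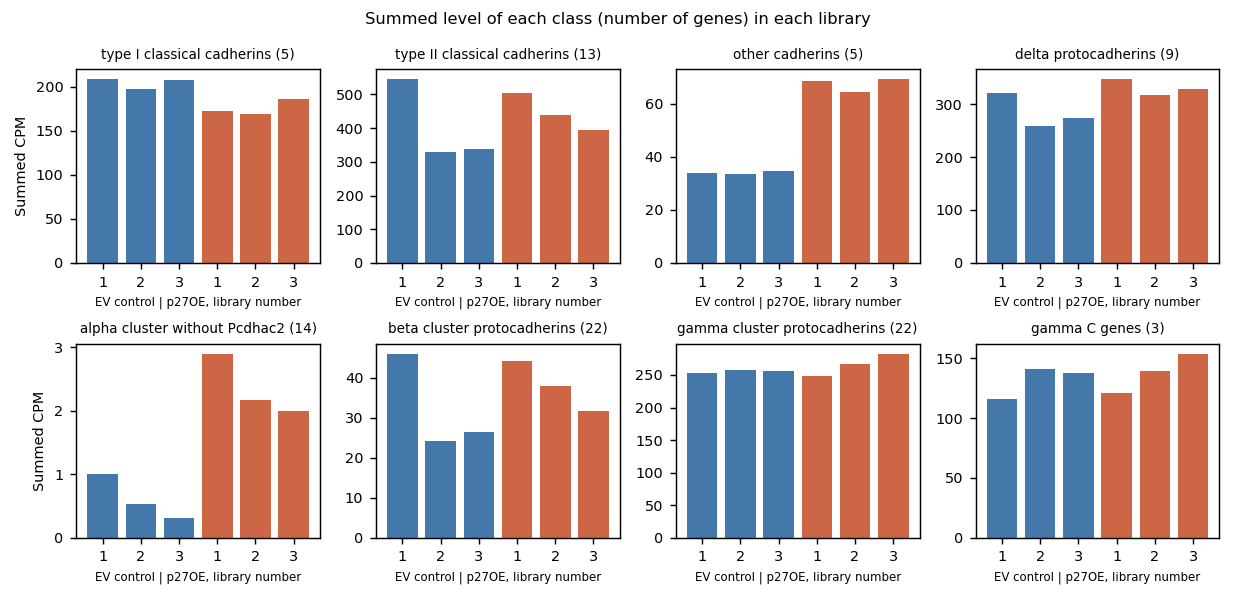
Summed CPM of classes of members in each of the 6 libraries (bars from 0, blue for EV control, orange for p27OE, the number of genes in brackets). Alpha genes are shown without Pcdhac2, and the other protocadherins are not shown. The other cadherins, mostly Cdh13, and the alpha genes without Pcdhac2 are higher in all 3 p27OE libraries. The sum of the type I cadherins, mostly Cdh2 and Cdh3, is lower in them, as was Cdh3, while Cdh2 overlapped between the groups. Beta genes are highest in EV control 1 and p27OE 1.

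The split between the libraries numbered 1 and the rest showed in many members. In 22 of the 67 tested members (32.8%) both libraries numbered 1 lay above the other 4, against 16.5% of all genes tested, and in 7 both lay below, where all genes gave 16.5%. Of the 18 beta genes 9 were highest in these libraries, as were 4 of the 8 delta protocadherins, Pcdh9, Pcdh11x, Pcdh17 and Pcdh18, and Cdh11, Cdh1, Cdh15 and Cdh26. Lowest in them were Cdh2, Cdh10, Cdh18, Pcdh15, Pcdhga10, Pcdhgc3 and Pcdhgc5. These libraries also had the lowest Y-linked level and the highest Dcn and Lum, at 76.1 to 92.7 CPM against 4.18 to 25.2 CPM elsewhere, and the part of these differences in the members' levels was not tested.

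In edgeR with a term for Y-linked level, 19 of the 67 members passed (28.4%), 13 higher and 6 lower, while 34.0% of all genes passed (18% higher and 16.0% lower). The higher members were Cdh13, Cdh6, Pcdh7, Cdh17, Cdh18, Cdh1, Pcdh9, Pcdh10, Pcdh17, Pcdha10, Pcdha12, Pcdhb3 and Pcdhga7. The lower ones were Cdh3 (log2 fold change −0.79 ± 0.07, SE), Cdh10, Cdh24, Pcdh18, Pcdhgb6 and Pcdhgb7. Without both libraries numbered 1, 7 of 66 members passed, all higher (Cdh13, Cdh6, Pcdh7, Pcdh9, Pcdh10, Pcdh17 and Pcdha12), against 16.7% of all genes (7.81% higher and 8.9% lower). DESeq2 called 9 members, 7 higher and 2 lower, against 16.6% of all genes (8.18% higher and 8.41% lower).

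Genes that work with cadherins were read from 9 lists, in which values with ± and no unit are log2 fold changes with their SE, to be read beside a median of 0.01 and 2.61% called over all genes. Of all genes tested, 7244 lay above 0 and 6746 below, and 26.0% had an unadjusted edgeR p under 0.05. With DESeq2 16.6% passed and with limma-voom 3.0%. The 6 calls of the lists, Ctnnal1, Perp, Adam15, Ptpn14, Set and Piga, were all lost when EV control 2, EV control 3 or any single p27OE library was left out (edgeR adjusted p from 0.0544, for Perp, to 0.221, for Adam15). All 6 passed without EV control 1 and without both libraries numbered 1, fits whose only controls were EV control 2 and EV control 3, the most alike pair of one group. Ctnnal1 also missed the threshold with upper-quartile and total-count scaling (edgeR adjusted p = 0.0508 and 0.0571), and Adam15 with RLE scaling and with no filter (0.0517 and 0.0513). Of 32 tested catenin and adherens junction genes, 24 lay above 0 and 8 below (median 0.14), and Ctnnal1, an alpha-catenin relative, rose (10.5 ± 0.844 CPM in EV control, 18.3 ± 2.66 in p27OE, SD, n = 3; adjusted p = 0.0442, edgeR, log2 fold change 0.81). Shroom3, an actin regulator of apical junctions, was at 1.16 ± 0.37 without a call. Of the 12 other cadherin superfamily genes 11 lay above 0 (median 0.37), with the large atypical cadherin gene Fat1 at 386 ± 52.1 and 699.8 ± 161 CPM (log2 fold change 0.86; edgeR adjusted p = 0.0625) and Clstn2 at 1.30 ± 0.35. None of the 12 passed (edgeR; 3 at an unadjusted p under 0.05, 3 with DESeq2 and 0 with limma-voom).

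Of 8 desmosome genes, 5 lay above 0 and 3 below (median 0.30). Perp, a membrane protein of desmosomes and p53 target, rose by 1.92 ± 0.17 on the log2 scale (SE; edgeR adjusted p = 0.0263), and Dsp (desmoplakin) was at 0.275, 1.21 and 1.76 CPM in EV control and 3.20, 5.60 and 8.75 in p27OE without a call. Of 14 genes for transcription factors linked to the switch between Cdh1 and Cdh2, 9 lay above 0 and 5 below (median 0.08), and 0 passed (edgeR; 1 at an unadjusted p under 0.05, 1 with DESeq2 and 0 with limma-voom). Klf4 was at 0.95 ± 0.23 and Snai2 (Slug) at 0.23 ± 0.12.

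Of 17 cadherin cleavage genes 12 lay above 0 and 5 below (median 0.08). Adam15, a membrane protease, rose by 0.51 ± 0.09 on the log2 scale (SE; edgeR adjusted p = 0.0489), and Psen2, a gamma-secretase subunit, was at 0.57 ± 0.14 without a call. Of 21 phosphorylation and turnover genes 14 lay above 0 and 7 below (median 0.15). Ptpn14, a phosphatase found at adherens junctions, rose by 0.61 ± 0.09 (SE; edgeR adjusted p = 0.0352), and Numbl, an endocytic adaptor, was at 0.29 ± 0.07.

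Most regulators of clustered protocadherin promoters lay below 0. Of 19 such genes, 3 had a log2 fold change above 0 and 16 one below (median −0.22), and 0 passed with edgeR. An unadjusted edgeR p under 0.05 was reached by 10, beside 26.0% of all genes. With DESeq2 7 passed as lower, beside 8.41% of all genes, and with limma-voom 0 passed. The cohesin subunit genes Rad21 and Smc1a, whose products help loop distant enhancers to these promoters, were at −0.58 ± 0.14 and −0.38 ± 0.08 (SE; edgeR adjusted p = 0.0686 and 0.0548). The summed level of the list was 1841 to 1857 CPM in EV control and 1438 to 1651 in p27OE. In edgeR with a term for Y-linked level, 12 of the 19 passed as lower, beside 16.0% of all genes in that fit.

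Of 20 genes for cytoplasmic partners of protocadherins, 8 lay above 0 and 12 below (median −0.06). Set, a histone chaperone and phosphatase inhibitor that binds Pcdh7, fell (357 ± 24.1 CPM in EV control, 227 ± 18.3 in p27OE, SD, n = 3; adjusted p = 0.0348, edgeR, log2 fold change −0.65), and Wasf3, an actin regulator, was at 0.70 ± 0.22. In the list for the ligand, the GPI anchor and downstream proteins of Cdh13, the adiponectin gene Adipoq was at 0 to 0.0661 CPM and was not tested. Of the 28 tested genes 13 lay above 0 and 15 below (median −0.0045). Piga, which starts GPI anchor synthesis, fell by 0.86 ± 0.14 on the log2 scale (SE; edgeR adjusted p = 0.0412), and Pigs, of the complex that attaches the anchor, was at 0.33 ± 0.08 without a call.

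**Figure D5:**
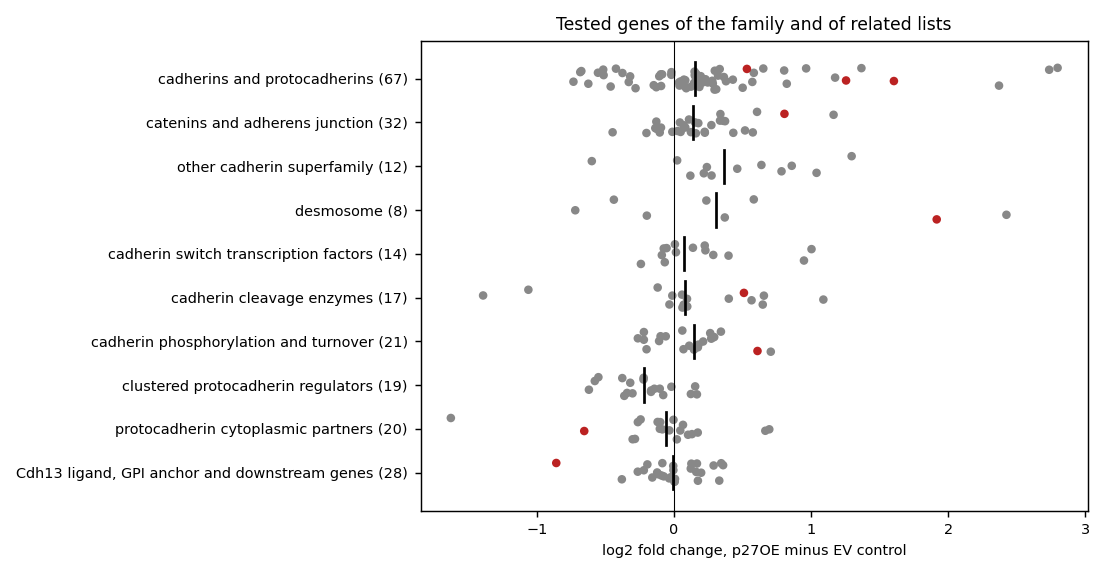
log2 fold change (p27OE minus EV control) of each tested gene of the family and of 9 related lists (points; the number tested in brackets), with the list's median as a black bar; red points passed (edgeR adjusted p under 0.05). The median of the clustered protocadherin regulators, −0.22, lies to the left of 0, and that of the cadherins and protocadherins, 0.16, to the right.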

How the data were processed

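RNA of 6 mouse embryonic fibroblast libraries was column-extracted and sequenced after TruSeq v2 preparation, per the labels' protocols. The deposited table holds raw read counts per gene symbol from TopHat2 2.0.14, Bowtie2 2.2.6 and featureCounts 1.4.6 with Subread on mm10, per the submitters' processing notes; the sources used here give no annotation, strand setting or filter. Without a strand setting, overlapping genes may share counts. Among deposited counts of 1 to 20, 65.9 to 68.6% were even, against 49.1 to 50.3% of counts over 100, so counting intervals for low genes would be too narrow if mates of a pair were counted apart.

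Counts were scaled by TMM and tested with edgeR 4.0.16 (robust glmQLFit and two-sided glmQLFTest; R 4.3.3) on a design of group alone, for 13990 genes kept by filterByExpr, with Benjamini-Hochberg adjustment over them and a threshold of 0.05. SE is that of the log2 fold change. P-values measure the spread between these libraries, which may be technical. No library repeated another: pairs of one group differed by a chi-square of 52.3 to 178 per gene, except EV control 2 and EV control 3, which differed by 6.27. The fits without EV control 1 and without both libraries numbered 1 kept only this close pair as controls, and its part in their calls was not tested.

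Alternatives were other scalings (total counts, upper quartile, RLE), no filter or a minimum of 1 CPM in 3 libraries, limma-voom (limma 3.58.1), DESeq2 1.42.0, a replicate block, a term for the summed Y-linked level of Ddx3y, Eif2s3y, Kdm5d and Uty, each library left out, and both libraries numbered 1 left out. The members, gene lists and alternatives were chosen with earlier results of these data known. Named in full were Cdkn1b, Cdh13, Cdh2, Cdh11, Cdh1, Cdh5, called members, and the 8 members of largest fold change and 8 of highest CPM; other members over 1 CPM were named with their means, and each list's called genes and 2 smallest p were named. Coordinates and exon lengths came from GENCODE M21 (GRCm38, the assembly of mm10), which matched 91 of 94 symbols to 1 gene. No sequence from chromosome 18 was printed.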

Additional observations from a re-analysis of the deposited data

How the results depend on the processing

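The 365 genes called became 2321 with DESeq2, 2410 with the replicate block (17.2% of genes), 4761 with a term for Y-linked level and 2334 without both libraries numbered 1, and 1 to 1827 when each library was left out. The 3 members called became 9, 11, 19 and 7 in the same order, and 0 to 4 when each library was left out; 2 members passed with upper-quartile and with total-count scaling and 3 with RLE, no filter, the stricter filter and limma-voom. The 6 called genes of the lists became 32 without both libraries numbered 1 and 62 with the Y-linked term. The cause was not tested. For the replicate block, the deviations of libraries 1, 2 and 3 from their group means correlated between groups at r = 0.67, 0.04 and 0.50 over genes. EV control 2 was closer to p27OE 3 (0.56) than to p27OE 2, and the numbers were treated as names only. Of 76 named genes compared over all alternatives, none that was called changed sign, while 20 without a call did. Leaving out each library gave −0.10 to 0.19 for Cdh2, −0.0414 to 0.11 for Pcdhgc3, −0.22 to 0.0899 for Pcdh19, −0.37 to 0.11 for Pcdh18, −0.13 to 0.29 for Pcdh20, −0.11 to 0.60 for Pcdhb5, −0.27 to 0.60 for Pcdhb7, −0.0333 to 0.51 for Pcdhb17, −0.06 to 0.58 for Pcdhb20, −0.59 to 0.35 for Pcdhb21, −0.25 to 0.0519 for Pcdhga1, −0.0059 to 0.42 for Pcdhgb1, −0.33 to 0.11 for Pcdhga5, −0.46 to 0.0873 for Pcdhga6, −0.0625 to 0.25 for Pcdhgb4, −0.23 to 0.27 for Pcdhga8, −0.0021 to 0.32 for Pcdhga9, −0.0503 to 0.11 for Pcdhga11, −0.0625 to 0.43 for Pcdhgc5 and −0.41 to 0.63 for Pcdh11x. With limma-voom Pcdhga8 was at 0.0924 and with the replicate block at 0.0331. With the Y-linked term Pcdh19 was at 0.0017, Pcdhb7 at −0.0886 and Pcdh11x at −0.0805. Without both libraries numbered 1, Pcdh19 was at 0.0808, Pcdh20 at −0.24, Pcdhb21 at 0.36, Pcdhga1 at 0.031, Pcdhga5 at 0.0575, Pcdhga8 at 0.29 and Pcdhga11 at −0.0578. Cdh6 rests on 29 to 140 counts per library and Pcdha12 on 4 to 81, which limits their precision.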
